A study of Mus musculus with 6 samples.

Results

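Arterial endothelial cells (ECs) were taken from 2 droplet libraries of whole mouse lung at embryonic day 18.5, shortly before birth, and 1737 of the 18683 whole-lung barcodes met the rule. The whole series held 63659 barcodes in 6 libraries. The rule was applied to values that had been adjusted for free RNA with SoupX. It kept cells with at least 700 genes and 0.5% to 10% mitochondrial reads, at least 3 unique molecules (UMIs) of the EC genes Pecam1, Cdh5 and Cldn5 together and at most 2 of the collagen genes Col1a1 and Col3a1. Cells with Prox1, a lymphatic regulator, and cells with more than 1 UMI of the proliferation genes Mki67 and Top2a were left out. The remaining ECs were called arterial when Gja4, which encodes connexin 37, and Stmn2, a microtubule regulator, summed to at least 2, so the levels of these genes were chosen and are no result. ECs that met every other limit served as the other ECs.

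The labels gave the genotype Cxcl12DsRed/DsRed, a homozygous null, for one whole-lung library and the heterozygous control genotype Cxcl12DsRed/+ for the other. Both carried the reporter DsRed knocked into exon 1 of Cxcl12, so no wild-type lung was in the comparison. The study's text speaks of a pair of embryonic lungs for each genotype, and each genotype had 1 library. Their labels repeat the protocol of a sort, but both libraries held epithelial, mesenchymal and immune cells. A further library at E18.5, from lungs labelled Cxcl12DsRed/+ and sorted for reporter signal and the endothelial surface protein CD31 without CD45 or EpCAM, played no part in making the rule and is set beside them. Its arterial and other ECs were cut with the same limits, but on unadjusted UMIs. With 1 library per group there was no test between groups: the intervals below are exact 95% intervals that cover counting error only, not the spread between lungs.

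Arteries carry blood from the heart into the capillary bed, and their ECs are set apart from those of capillaries and veins by Notch signalling, SOXF transcription factors and the connexins of their gap junctions. CXCL12 is a secreted chemokine that arterial ECs make, which signals through CXCR4 and is also bound by the scavenging receptor ACKR3. In large arteries near the heart, ECs lie on an elastic wall of elastin and fibulins, while distal arteries lead into the capillary plexus.

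Cxcl12, the targeted gene, went against the labels. It is encoded by ENSMUSG00000061353 at chr6:117168535-117181367 on the plus strand of GRCm38. Arterial cells of the library labelled null held 1140 CPM of it, that is UMIs of the gene per 1000000 UMIs (1122 to 1159). Those of the library labelled control held 19.8 CPM (15.7 to 24.7), a ratio of 57.5 (46.1 to 72.7). The names of the deposited files gave each of these libraries the opposite genotype to its label, so Cxcl12 followed the file names. The libraries are therefore called the library labelled null and the library labelled control throughout, and no difference between them is given a genotype.

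The same order held in cells that were not called arterial. Other ECs had 38.2 CPM of Cxcl12 in the library labelled null and 0.216 CPM, from 2 UMIs, in the library labelled control. Mesenchymal cells had 42.6 CPM (40.4 to 45.0) against 0.199 CPM, from 3 UMIs. No Cxcl12 UMI was found in epithelial or immune cells of the library labelled control, where the library labelled null had 7.70 and 10.9 CPM, so levels were at least 32.3-fold and 51.4-fold higher there, taking 3 counts as the limit of a count of 0. The library labelled null thus had Cxcl12 UMIs at a low level in each of these populations. The library labelled control had nearly none outside the cells called arterial. The populations were set by markers and not by place, so they can include cells of the arterial wall. These UMIs were not adjusted for free RNA, whose part in the low levels was not tested.

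Low Cxcl12 counts remained in arterial cells of the library labelled control. Its 79 UMIs lay in 64 of 434 cells, with at most 4 in a cell. After each cell was thinned to 2000 UMIs, 2.995% of these cells (1.60% to 5.07%) had a Cxcl12 UMI. None of its 1059 other ECs did, which allows a share of up to 0.283%. The corresponding shares were 53.9% and 4.30% in the library labelled null, and 61.7% and 6.73% in the sorted library. In epithelial cells the share was 0.858% in the library labelled null and 0 of 635 cells in the library labelled control, which allows up to 0.472%. Before thinning, 66.4% and 14.7% of arterial cells had a Cxcl12 UMI, at median depths of 8126 and 7821.5 UMIs. The libraries shared 140 barcodes, 3 and 2 of them among the arterial cells, and none of the 79 UMIs came from a shared barcode.

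The promoters of genes that were high in arterial cells were searched for TGGGAA, the core of the sequence bound by RBPJ, the DNA-binding partner of Notch. The windows of Cxcl12, Bmx and Fbn1 are shown because these genes were high in arterial cells and each window holds 1 copy on the strand shown. Each run is the 250 bases before the gene's start in RefSeq on GRCm38.p6, 5′ to 3′ on the gene's strand, with TGGGAA in capitals.
Cxcl12, chr6:117168285-117168534, plus strand: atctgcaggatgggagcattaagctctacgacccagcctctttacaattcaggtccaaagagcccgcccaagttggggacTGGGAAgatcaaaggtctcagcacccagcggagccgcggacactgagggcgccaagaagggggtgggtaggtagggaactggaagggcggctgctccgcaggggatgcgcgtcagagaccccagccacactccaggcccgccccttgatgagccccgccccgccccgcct
Bmx, chrX:164258194-164258443, minus strand: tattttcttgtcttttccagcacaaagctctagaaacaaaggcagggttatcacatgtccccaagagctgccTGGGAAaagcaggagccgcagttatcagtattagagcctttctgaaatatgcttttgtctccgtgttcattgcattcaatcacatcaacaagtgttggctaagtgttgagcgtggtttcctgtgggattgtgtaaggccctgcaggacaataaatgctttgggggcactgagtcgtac
Fbn1, chr2:125506439-125506688, minus strand: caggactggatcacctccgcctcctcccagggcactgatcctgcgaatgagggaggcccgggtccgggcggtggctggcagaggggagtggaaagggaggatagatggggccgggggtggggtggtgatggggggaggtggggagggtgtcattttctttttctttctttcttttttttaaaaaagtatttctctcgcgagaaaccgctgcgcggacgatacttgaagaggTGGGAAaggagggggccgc

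Counted on both strands, TGGGAA was in 18 of the 72 windows found for genes at least 2-fold higher in arterial cells (25%) and in 6510 of 27025 windows of all genes (24.1%). The letters were thus about as common near arterial genes as near any gene.

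Arterial cells made up different shares of the ECs of the libraries. The library labelled null had 1303 arterial cells among 2292 non-lymphatic, non-cycling ECs (56.8%, 54.8% to 58.9%), and the library labelled control had 434 among 1494 (29.0%, 26.8% to 31.4%). The limits on genes and mitochondrial reads kept 9067 of 9838 barcodes in the library labelled null and 7448 of 8845 in the library labelled control. Of all cells kept, arterial cells were 14.4% and 5.83%, and all ECs were 30.2% and 23.7%. These denominators were thus filtered to different degrees. The arterial share was higher in the library with Cxcl12. SoupX had removed 18.5% of the UMIs of the library labelled null and 39.96% of those of the library labelled control, and arterial cells had a median of 6708 and 4778 adjusted UMIs, which bears on a rule with a fixed number of UMIs. With the rule on unadjusted UMIs the shares were 63.0% and 37.9%, and with ECs thinned to 4000 whole-number UMIs they were 53.8% and 31.6%. With 1 library per label, the label and the dissociation of the lungs cannot be told apart.

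**Figure D1:**
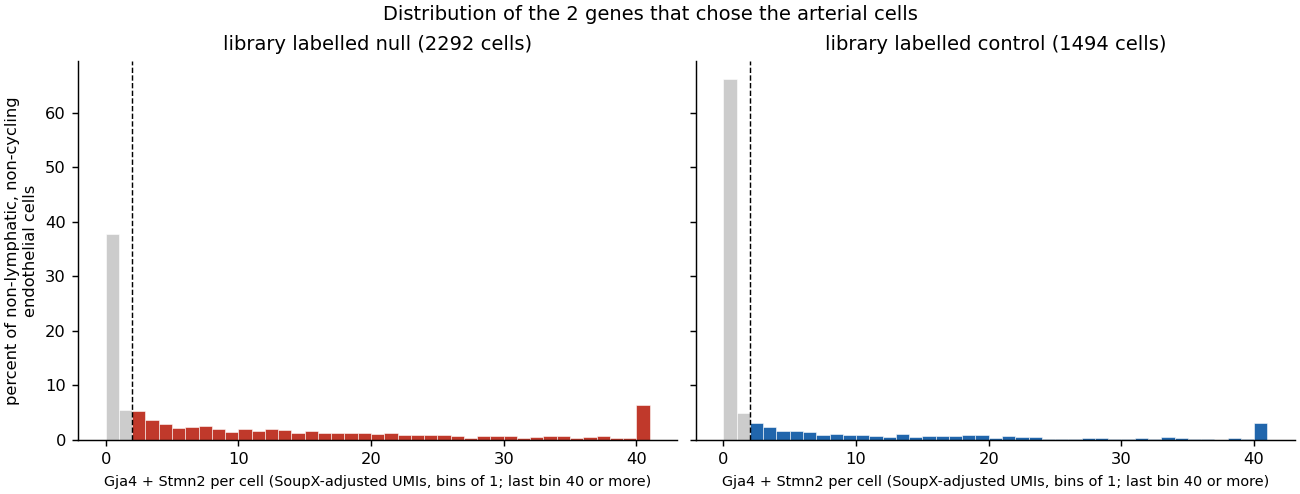
Percent of non-lymphatic, non-cycling ECs (y axis) by the summed SoupX-adjusted UMIs of Gja4 and Stmn2 per cell (x axis), for both whole-lung libraries, with the cells called arterial in colour and the limit of 2 dashed. The coloured cells are 56.8% of 2292 ECs in the library labelled null and 29.0% of 1494 in the library labelled control, and no gap separates them from the grey cells.

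The Gja4 and Stmn2 signal was continuous. Just outside the limit, with a sum of 1 to 2, lay 126 and 72 cells of the libraries labelled null and control, and just inside, with 2 to 3, lay 122 and 45 cells. Sums of 20 and over were found in 448 and 130 cells, 34.4% and 30.0% of the arterial cells.

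Genes that the rule did not use were followed along this range. Gja5, which encodes connexin 40 of arterial ECs, was 35.9 and 4.43 CPM in cells just inside the limit and 283 and 259 CPM in cells with sums of 20 and over. Bmx, an arterial tyrosine kinase, went from 8.50 and 4.43 CPM to 101 and 126 CPM over the same range. Dkk2, a secreted modulator of Wnt signalling, was at 0 in both libraries just inside the limit and at 148 and 196 CPM at the top. All 3 genes were therefore lower in the cells that barely met the rule than at the top. The libraries differed for Gja5 just inside the limit, where the intervals were 25.4 to 49.3 and 0.537 to 16.0 CPM, and in the library labelled control it was 30.9 CPM just outside the limit. The sorted library had 25.6, 7.14 and 6.39 CPM of Gja5, Bmx and Dkk2 just inside the limit and 186, 101 and 200 CPM at the top.

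Some capillary genes ran the other way. Gpihbp1, which anchors lipoprotein lipase on capillary ECs, was 894 and 975 CPM just inside the limit, against 972 and 1091 CPM just outside it, and 229 and 133 CPM at the top. Aplnr, the apelin receptor of general capillaries, was 104 and 131 CPM just outside the limit, 96.3 and 106 CPM just inside and 8.88 and 14.1 CPM at the top. Plvap, a diaphragm protein of fenestrated ECs, did not follow them, with 438 and 479 CPM just inside and 383 and 454 CPM at the top. Of the general capillary list 2 of 8 genes, Gpihbp1 and Aplnr, were at least 2-fold lower in arterial than in other ECs of both whole-lung libraries (1.2% of all genes tested), and Ptprb, an endothelial phosphatase, was higher (3.23% of all genes tested) at 3.08-fold and 2.40-fold. The cells that barely met the rule had Gpihbp1 and Aplnr levels close to those of cells just outside it, while Aplnr was higher, at 171 and 215 CPM, in cells with sums under 1, so the name arterial describes the upper part of the range better than its lower end. The defining arterial genes not used by the rule, Gja5, Hey1, Sox17, Dll4, Efnb2, Bmx and Cxcl12, were all higher in the arterial than in the other ECs of each library.

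**Figure D2:**
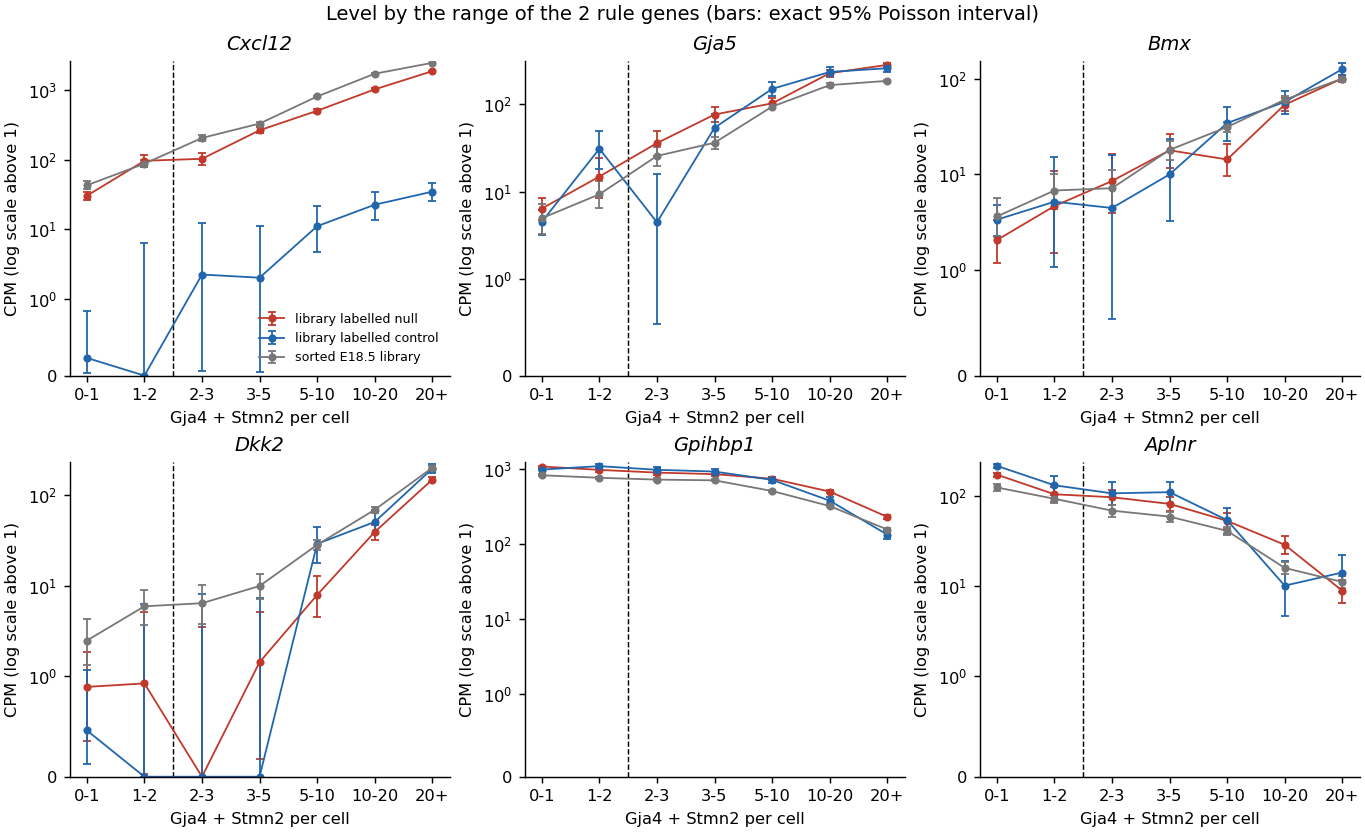
Levels of 6 genes in CPM (y axes, logarithmic above 1) in ECs grouped by the sum of Gja4 and Stmn2 (x axes), with exact 95% Poisson intervals as bars; the dashed line is the limit of 2. Cxcl12 reached 1884 CPM at the top in the library labelled null and 34.6 CPM in the library labelled control, and at the top Gja5 was 283, 259 and 186 CPM in the libraries labelled null and control and the sorted library.

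Cxcl12 itself climbed with the rule genes in both libraries, at levels far apart. In the library labelled null it was 103 CPM just inside the limit, 265 CPM at sums of 3 to 5, 507 CPM at 5 to 10, 1031 CPM at 10 to 20 and 1884 CPM above. The library labelled control had 2.22, 1.99, 11.0, 22.5 and 34.6 CPM in the same groups, from 1, 1, 8, 20 and 49 UMIs. The residual UMIs of that library were thus mostly in its strongest arterial cells.

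Against other ECs, arterial cells of both whole-lung libraries had at least 2-fold more of 105 of 3255 genes (3.23% of those tested) and at least 2-fold less of 39 (1.2%). Since these cells were cut from the same values, the counts describe the cut and are not a test. Within single libraries, the genes at least 2-fold higher and lower were 3.81% and 1.34% of those tested in the library labelled null, 4.02% and 1.98% in the library labelled control and 4.07% and 1.98% in the sorted library. In the sorted library all 105 and all 39 lay on the same side, 92 and 36 of them by 2-fold or more. Its cells were cut with the same genes on unadjusted UMIs, so this is not a test either. The 39 lower genes numbered 12 with the rule on unadjusted UMIs, 60 with Gja4 alone, 62 with SoupX-adjusted levels and 70 against all other ECs.

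Genes of several kinds were among the 12 with the highest mean ratio. Gja5 was 198 CPM in arterial against 7.40 CPM in other ECs of the library labelled null, 26.8-fold (21.0 to 34.7). In the library labelled control it was 179 against 6.15 CPM, 29.1-fold (22.2 to 38.8), and in the sorted library 138 against 6.70 CPM, 20.6-fold. The long intergenic non-coding RNA Gm9946 had the highest mean ratio, with 77.2 against 0.336 CPM in the library labelled null, and 71.3 CPM against 0 UMIs in the library labelled control. Dkk2 was 72.1 and 86.1 CPM in arterial cells of these libraries against 0.897 and 0.432 CPM in other ECs. Serpinf1, which encodes the anti-angiogenic factor PEDF, was 55.5 and 55.95 CPM against 0.785 and 1.73 CPM. Bmx was 59.3 and 65.7 CPM against 2.36 and 3.46 CPM. The tyrosine phosphatase gene Ptprr was 59.1 and 77.5 CPM against 1.91 and 3.89 CPM. In each of these genes the intervals of arterial and other ECs were far apart in every library.

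Matrix genes of the arterial wall were also among these 12. Fbln5, which encodes the fibulin that organizes elastic fibres, was 771 CPM (library labelled null) and 893 CPM (library labelled control) in arterial cells against 45.2 and 51.9 CPM, 17.1-fold (15.4 to 18.9) and 17.2-fold (15.6 to 19.0). Fbn1, the microfibril component fibrillin 1, was 286 and 373 CPM against 17.6 and 24.0 CPM. Slc45a4, Atp13a3 and Thsd7a were 7.62-fold to 12.2-fold higher. With Gja4 alone as the rule, the mean log2 ratio over both libraries was 3.37 for Fbln5 in place of 4.08, 3.47 for Bmx in place of 4.23, 5.08 for Dkk2 in place of 6.12, 5.81 for Gm9946 in place of 6.85 and 4.39 for Serpinf1 in place of 5.05. With 5 CPM added in place of 0.5 it was 3.89 for Dkk2, 3.94 for Gm9946 and 3.28 for Serpinf1, and under each alternative run the 24 named genes stayed past 2-fold in the same direction. The Notch ligand Jag1 was 114 and 103 CPM against 11.2 and 11.4 CPM.

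Of the list of arterial identity and Notch genes, 17 of 20 reached 50 CPM, and 9 of these were at least 2-fold higher in both libraries and none lower, against 3.23% and 1.2% of all genes tested. They were Gja5, Hey1, Jag1, Efnb2, Sox17, Unc5b, Bmx, Mecom and Gata6. The median log2 ratio was 1.02 and 1.15, against 0.02 and 0.03 over all genes tested. Sox17, a SOXF factor of arteries, was 831 and 722 CPM against 350 and 257 CPM, 2.37-fold and 2.81-fold. Mecom, a zinc finger regulator, was 384 and 378 CPM against 53.3 and 58.4 CPM, and Hey1, a Notch target, was 323 and 305 CPM against 159 and 137 CPM. Dll4, the Notch ligand of arterial and sprouting ECs, was 1.68-fold and 1.56-fold higher and stayed under the 2-fold mark, as did the receptor Notch1 at 1.94-fold and 1.81-fold.

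Several other groups had members that were higher in arterial cells. Against the 3.23% of all genes tested that were at least 2-fold higher and the 1.2% lower, the lists had the following counts. Of the vessel wall list 7 of 10 genes of at least 50 CPM were at least 2-fold higher, and of the distal artery list 8 of 10, with medians of 2.61 and 2.33, and 2.44 and 2.43, on the log2 scale. Both lists include genes that the study chose as arterial. The mesenchymal and smooth muscle list was also higher, at 179 against 126 CPM and 290 against 218 CPM, and its part was not tested. Tm4sf1, a membrane protein of ECs, was 2173 and 2086 CPM against 331 and 295 CPM. Of the BMP and TGF-beta list 5 of 11 were higher, namely Smad6, Smad7, Id1, Id2 and Tgfb2. Smad6 and Smad7 are inhibitors of the pathway and Id1 and Id2 are its targets. The vasoconstrictor gene Edn1 was 356 and 319 CPM against 91.4 and 68.9 CPM, and Klf2, a flow-induced factor, was 1455 and 1329 CPM against 645 and 646 CPM. Of 4 venous list genes of at least 50 CPM, 2 were at least 2-fold higher and 1, Nrp2, lower. The higher ones were Vwf, von Willebrand factor, at 6.81-fold and 4.33-fold, and the protease gene Prss23, at 2.73-fold and 2.39-fold.

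Fewer genes were lower in arterial cells, and by smaller ratios. Aplnr was 35.7 and 42.9 CPM against 163 and 209 CPM in other ECs, a ratio of 0.219 (0.196 to 0.243) and 0.205 (0.174 to 0.2399). The cell cycle gene Ccnd1 was 208 and 170 CPM against 572 and 523 CPM. Nrp2, a receptor of VEGFC and semaphorins, was 23.8 and 36.9 CPM against 70.0 and 105 CPM. The genes Fam167b, Trp53i11, Tmem255a, Dcbld1, Slc12a2, Edil3, Gem, Gmfg and Tspan15 had ratios from 0.288 to 0.424 in the whole-lung libraries. About 35.0% of the 60-base stretches at the end of Gmfg transcripts also occur in another gene, so its counts are uncertain. The receptors of CXCL12 were split: Cxcr4 was 2.93-fold and 2.35-fold higher in arterial cells (105 and 96.6 CPM), and Ackr3 was lower, at 52.1 and 56.2 CPM against 129 and 120 CPM.

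**Figure D3:**
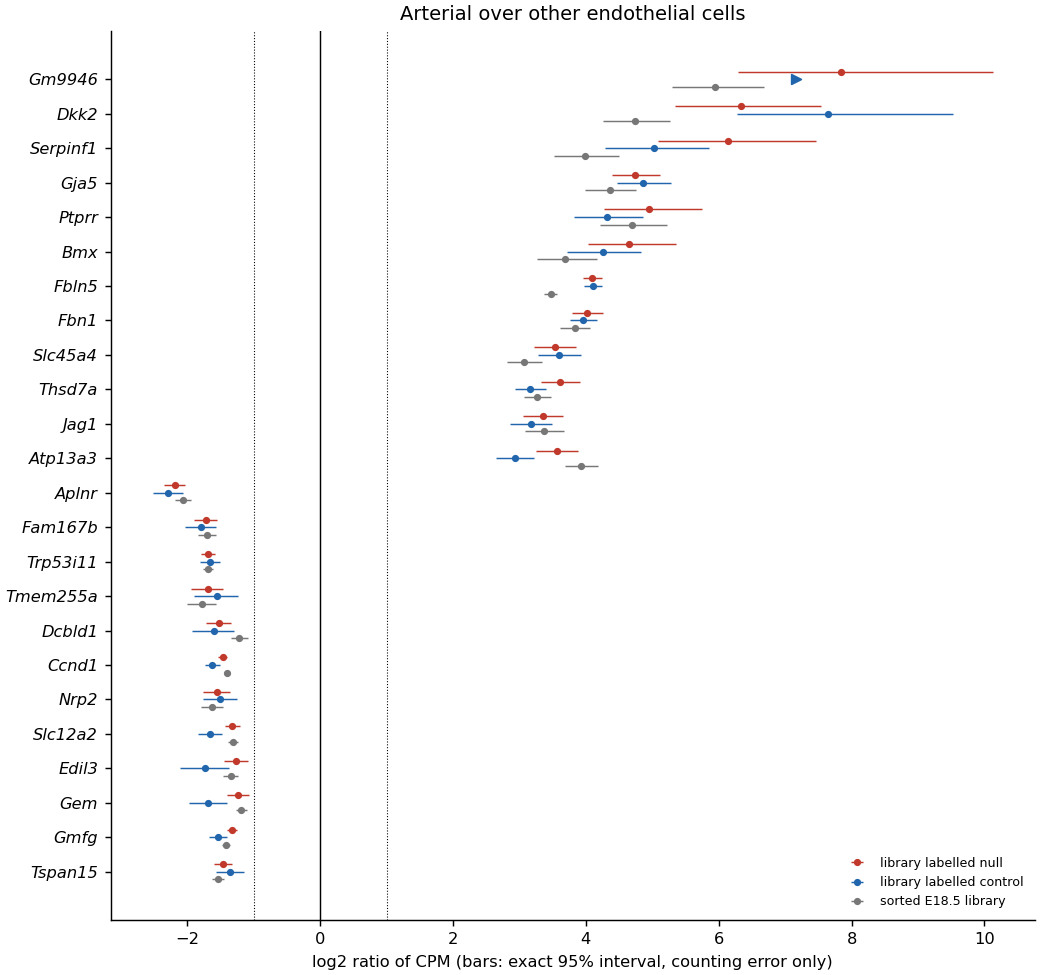
Log2 ratio of CPM in arterial over other ECs (x axis) for the 12 genes with the highest and the 12 with the lowest mean ratio (y axis), with exact 95% intervals; dotted lines mark 2-fold and the triangle marks a gene with no UMI in other ECs, drawn with 0.5 CPM added. The sorted library, which chose none of these genes, lies on the same side as both whole-lung libraries for all 24. Its cells were cut with the same limits on unadjusted UMIs.

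The arterial cells of the 2 whole-lung libraries were close to each other. Of 3389 genes of at least 50 CPM in either library, 5 were at least 2-fold higher in the library labelled null (0.148%) and 14 at least 2-fold lower (0.413%). Other ECs had 6 and 21 such genes of 3265 (0.184% and 0.643%). The median log2 ratio in arterial cells was 0.00 and 98.3% of genes lay within 1.5-fold. With SoupX-adjusted values for the levels, 78 genes were higher and 27 lower, so the count differed with the adjustment for free RNA, which itself differed between the libraries.

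The higher genes were Cxcl12, Xist, Car4, Hba-a1 and Hbb-bs. Car4, the carbonic anhydrase of one type of alveolar capillary, was 51.5 CPM in arterial cells of the library labelled null and 2.76 CPM in those of the library labelled control, 18.6-fold (10.4 to 37.5). On the log2 scale this ratio was 3.99, and it was 2.07 with the rule on unadjusted UMIs and 2.38 with no lower mitochondrial limit, so its size rests on these limits while its direction held. In the sorted library it was 82.2 CPM. Other ECs had 72.6 and 25.8 CPM, 2.81-fold (2.42 to 3.28). Within the arterial cells of the library labelled null Car4 was 150 CPM just inside the limit, 47.1 CPM at sums of 3 to 5, 118 CPM at 5 to 10, 35.4 CPM at 10 to 20 and 16.2 CPM above. In the library labelled control its 5 and 6 UMIs at sums of 3 to 5 and 5 to 10 were all that arterial cells had. Levels thus varied along the range without a steady order. Cells with at least 3 SoupX-adjusted UMIs of the capillary markers Car4, Apln and Ednrb together numbered 101 of 1303 and 21 of 434 arterial cells. This count includes Car4 itself. Of the Car4 capillary list 1 of 8 genes of at least 50 CPM, Car4, was past 2-fold between the libraries, against 0.148% of all genes tested. The median log2 ratio of that list was 0.22.

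The haemoglobin genes Hba-a1 and Hbb-bs were 132 against 11.5 CPM and 187 against 22.1 CPM. The ratio of Hba-a1 was 11.5 in arterial cells and 1.51 in other ECs, and that of Hbb-bs 8.47 and 2.17. On the log2 scale the arterial ratios were 3.46 and 3.05, and 7.84 and 8.30 with SoupX-adjusted values. The study lists both genes among those from which the SoupX adjustment was estimated. The adjusted ratios are therefore no separate measure of this difference. The whole erythroid list summed to 367 and 39.1 CPM in arterial cells and to 450 and 222 CPM in other ECs, with 2 of its 8 genes at 0 in each. Its part in the other differences was not tested. Xist, which silences an X chromosome in females, was 598 CPM in arterial cells of the library labelled null and had no UMI in those of the library labelled control, so it was at least 794-fold higher, while the Y-linked gene Ddx3y was 38.0 and 92.8 CPM. Arterial cells of the library labelled null thus held both Xist, a marker of female cells, and Ddx3y, a marker of male cells. Those of the library labelled control held Ddx3y without Xist. The sexes of the embryos and the label cannot be told apart.

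Of the interferon and MHC list 1 of 11 genes of at least 50 CPM, Isg15, was at least 2-fold lower in the library labelled null, against 0.413% of all genes tested. The interferon-induced GTPase gene Iigp1, which is not on that list, was 17.7 against 66.0 CPM, a ratio of 0.269 (0.224 to 0.322), and was 0.265 in other ECs. Isg15, an interferon target, was 29.3 against 69.0 CPM, and 0.425 and 0.456 in arterial and other ECs. Cd200, an inhibitory ligand for myeloid cells, was 145 against 401 CPM, 0.361 (0.338 to 0.387), and 0.422 in other ECs. The sorted library had 287 CPM of Cd200. These genes therefore differed in the same direction in both kinds of EC, and the sizes were not tested against each other.

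Apoe was 170 against 391 CPM and S100a8, a neutrophil gene, 34.9 against 81.0 CPM. None of the 4 genes of the immune list of at least 50 CPM was past 2-fold, against 0.148% higher and 0.413% lower of all genes tested. Tyrobp, an immune adaptor, was at 44.6 and 80.5 CPM. The 10 genes of the immune list summed to 504 and 777 CPM in arterial cells and to 662 and 1479 CPM in other ECs, with none at 0, while the sorted library had 22.2 CPM. Their part in these differences was not tested. Mmp2, Tagln, Fmo2 and Hhip were lower on unadjusted UMIs and higher with SoupX-adjusted values. Enpp2 was lower on unadjusted UMIs and near equal with SoupX-adjusted values, at a log2 ratio of 0.055. The direction of these genes is therefore not settled. The mesenchymal and smooth muscle list summed to 179 and 290 CPM in arterial cells and to 126 and 218 CPM in other ECs, with 1 of its 12 genes at 0 in the library labelled control, and its part was not tested. The metallothionein gene Mt1 was 41.6 against 142 CPM, and the binding proteins Igfbp5 and Igfbp3 were 14.98 against 53.7 CPM and 59.9 against 125 CPM. Most Igfbp5 UMIs of the arterial cells of both libraries lay in the few cells with high Eln described below. In other ECs the log2 ratio of Igfbp5 was -0.16. Without cells that held markers of another lineage the log2 ratio of Mt1 went from -1.76 to -0.35. In cells with sums of 10 or more it was 0.46 and that of S100a8 0.15, against -1.20 in all arterial cells. With the rule on unadjusted UMIs the log2 ratio of Igfbp5 went from -1.81 to -0.54 and that of Igfbp3 from -1.06 to -0.85. Without Scrublet calls that of Apoe went from -1.19 to -0.89. None of these 5 genes was therefore past 2-fold under every alternative. Scrublet called 2.76% and 5.53% of arterial cells doublets.

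Beyond these, the genes that the rule named as highest in the library labelled null were 1.55-fold to 2.01-fold higher. Hebp1, at 2.01-fold, is not among the 5 genes above because its log2 ratio with 0.5 CPM added was just under the 2-fold mark. They were Hebp1, Peg3, Mfap2, Cd24a, Phlda3, Ier3, Pdlim1, Grb14, Itm2a and Ankrd37. Mfap2, a microfibril protein, was 168 against 96.6 CPM, and the immediate early gene Ier3 was 417 against 254 CPM. On the lower side Tpm3-rs7, Ctss and Ebf1 had ratios of 0.516, 0.539 and 0.546. At sums of 10 or more the log2 ratio of Ctss was 0.58 in place of -0.88 and that of Tyrobp 0.60 in place of -0.85. Of the end stretches of Tpm3-rs7, 41.5% also occur in Tpm3, and of those of Pdlim1, 17.5% occur in other genes, so the counts of both are uncertain.

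Few genes of any kind lay past 2-fold between the libraries (0.148% and 0.413% of all tested), so the gene lists are given as counts from which nothing particular to them is read. None of the 17 arterial identity and Notch genes, 10 vessel wall genes or 11 BMP and TGF-beta genes of at least 50 CPM lay past 2-fold between the libraries, nor did any of the general capillary, venous, guidance or junction lists. The medians of these lists lay between -0.19 and 0.08 on the log2 scale. Of the distal artery list only Igfbp3 lay past 2-fold, and of the Car4 capillary list only Car4. Gja5 was 1.11-fold higher in the library labelled null (1.02 to 1.20), Sox17 1.15-fold (1.10 to 1.20) and Cxcr4 1.09-fold (0.970 to 1.22), while Ackr3 was 0.927-fold (0.795 to 1.08). Smad7 was 1.48-fold higher (1.36 to 1.61). Over the hypoxia and glycolysis list the median log2 ratio was 0.23.

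**Figure D4:**
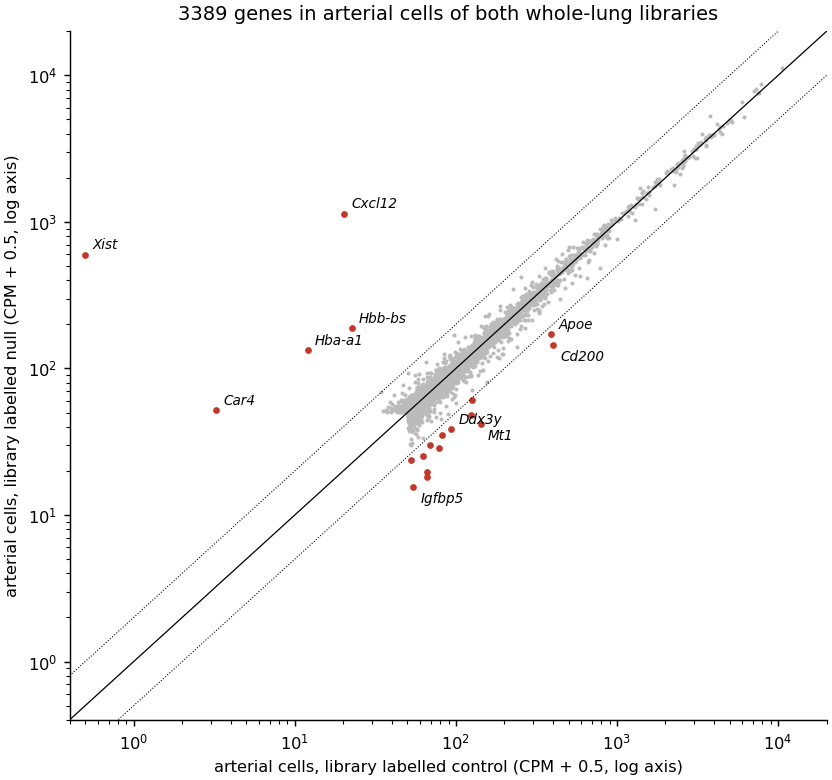
Levels of 3389 genes in arterial cells of the library labelled control (x axis) and the library labelled null (y axis), in CPM with 0.5 added on logarithmic axes, with the line of equality and dotted lines at 2-fold; each point is a gene. The 19 red points are at least 2-fold apart, with Cxcl12 at 1140 against 19.8 CPM and Xist at 598 CPM against no UMI farthest from the line.

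Arterial cells were also described by elastin, a product of large arteries. After thinning to 2000 UMIs, cells with at least 5 Eln UMIs were called the proximal range, which is a range of a level and not a cell type. It held 85 of 1292 arterial cells in the library labelled null (6.58%, 5.29% to 8.07%) and 36 of 434 in the library labelled control (8.29%, 5.88% to 11.3%). The sorted library had 470 of 6572 (7.15%, 6.54% to 7.80%). The intervals of the whole-lung libraries overlapped, and with the rule on unadjusted UMIs the order turned, at 5.20% and 4.34%. The intervals leave out the error of the thinning draw, which was made anew for each set of cells. Near the cut, 63 and 27 cells had 3 to 7 Eln UMIs, and 857 and 287 cells had none. Eln was not particular to arterial cells. In a separate draw of 2000 unadjusted UMIs per cell, 31.8% and 35.9% of arterial cells had an Eln UMI, against 96.2% and 95.6% of mesenchymal cells.

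Cells of the proximal range differed widely from the rest. Of 3410 genes, 171 were at least 2-fold higher in both whole-lung libraries (5.01%) and 157 lower (4.6%). Since Eln set the range, these counts describe the cut and are not a test. In the sorted library 161 of the 171 and all 157 had the same direction. Its proximal range was cut with the same Eln limit, so this is not a test either. Gkn3, a marker of proximal arterial ECs, was 217 against 1.37 CPM in the library labelled null, 108 against 0.568 CPM in the library labelled control and 288 against 2.42 CPM in the sorted library. The Wnt antagonist Sfrp2 was 224 against 1.11 CPM, 197 CPM against 0 UMIs and 239 against 0.462 CPM. Igfbp5 was 143 against 3.34 CPM and 422 against 5.39 CPM, with 152 of its 191 and 195 of its 214 UMIs in the proximal range. The epoxide hydrolase gene Ephx2, the prolyl hydroxylase gene P4ha3, the peptidase gene Cpe, the keratin gene Krt18 and the ectoenzyme gene Art4 were 23.4-fold to 388-fold higher there in the whole-lung libraries. Of the vessel wall list 13 of 14 genes of at least 50 CPM were higher, Eln apart as the gene that set the range. Mgp, an inhibitor of calcification, was 5385 against 273 CPM and 4370 against 379 CPM. Lox, which cross-links elastin, was 329 against 13.5 CPM and 190 against 11.1 CPM.

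Genes lower in the proximal range came from several lists. They were 4 of 7 general capillary genes, 5 of 11 guidance genes, 4 of 10 interferon and MHC genes and 3 of 11 basement membrane genes of at least 50 CPM, against 4.6% of all genes tested. Alox12, an arachidonate lipoxygenase of distal arterial ECs, was 6.58 against 74.1 CPM and 2.16 against 84.6 CPM, and 7.63 against 68.9 CPM in the sorted library. Gpihbp1 was 21.6 against 541 CPM and 51.9 against 546 CPM. The fatty acid transporter Cd36 was 28.2 against 323 CPM and 23.8 against 376 CPM. Nostrin, a partner of endothelial nitric oxide synthase, was 0.940 against 93.6 CPM and 6.49 against 81.5 CPM. Kit, Rgcc, Rbp7 and Ly6c1 were the other genes with the lowest ratios, and 27.6% of the end stretches of Ly6c1 also occur in Ly6a or Ly6c2. Cxcl12 was lower in the proximal range, at 907 against 1159 CPM, 12.97 against 20.7 CPM and 1166 against 1650 CPM in the sorted library. The ratios were 0.783 (0.732 to 0.836), 0.626 (0.223 to 1.43) and 0.706 (0.685 to 0.729), and the interval of the library labelled control includes no difference. Cxcr4 was 12.2 against 113 CPM and 21.6 against 106 CPM. In the sorted library Cxcr4 was 6.82 against 40.1 CPM. The difference between ligand and receptor was not tested.

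Not all genes of the distal list followed Alox12. Of its 10 genes, Alox12 and Rasgrp3 were at least 2-fold lower in the proximal range of both libraries, and Vegfc and Dkk2 at least 2-fold higher, against 4.6% and 5.01% of all genes tested. Dkk2 was 306 against 50.9 CPM and 394 against 45.7 CPM. Among Notch genes Jag1 was 393 against 88.5 CPM and 326 against 73.5 CPM, and Hey2 60.2 against 2.14 CPM and 51.9 against 3.97 CPM, while Hey1 was 117 against 342 CPM and 149 against 326 CPM. Of 4 venous list genes of at least 50 CPM, Nr2f2, a venous regulator, and Vwf were at least 2-fold higher. Nr2f2 was 63.9 against 18.9 CPM and 60.5 against 22.4 CPM, and went the other way in the sorted library, at 5.997 against 8.58 CPM. Vwf was 1120 against 175 CPM, 1014 against 229 CPM and 802 against 226 CPM. The whole list of 10 summed to 1384 against 365 CPM, 1278 against 433 CPM and 1010 against 442 CPM in the sorted library. None to 2 of its genes were at 0. Vwf, which the study used to mark macrovessels, made up most of each sum in the proximal range. The sums therefore do not show that the venous genes were higher as a group. The part of this list in the other differences was not tested. The growth factor gene Bmp4 was 257 against 9.60 CPM and 141 against 6.81 CPM.

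Genes of mesenchyme moved with this range. The 12 genes of the mesenchymal and smooth muscle list summed to 928 against 111 CPM in the library labelled null, 1053 against 190 CPM in the library labelled control and 178 against 21.3 CPM in the sorted library, with 1 to 3 of them at 0 in the proximal range. Mesenchymal cells of the whole-lung libraries had 7483 and 6620 CPM. The vessel wall list, Eln among its genes, summed to 17755 and 16936 CPM in these mesenchymal cells and to 3934 and 4336 CPM in all arterial cells. In the proximal range, which Eln set, it was 27910 and 21204 CPM. The smooth muscle gene Tagln was 129 against 15.3 CPM and 290 against 31.8 CPM. The immune list was 681 against 489 CPM and 1373 against 699 CPM, and the erythroid list 28.2 against 398 CPM and 8.65 against 43.1 CPM. Their part in the higher levels of matrix genes was not tested. Cells of the proximal range had a median of 11344 and 10685 UMIs, against 8037 and 7622 in the rest. Without Scrublet calls the range held 5.73% and 6.34% of arterial cells, and without cells that held markers of another lineage 6.37% and 7.49%.

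**Figure D5:**
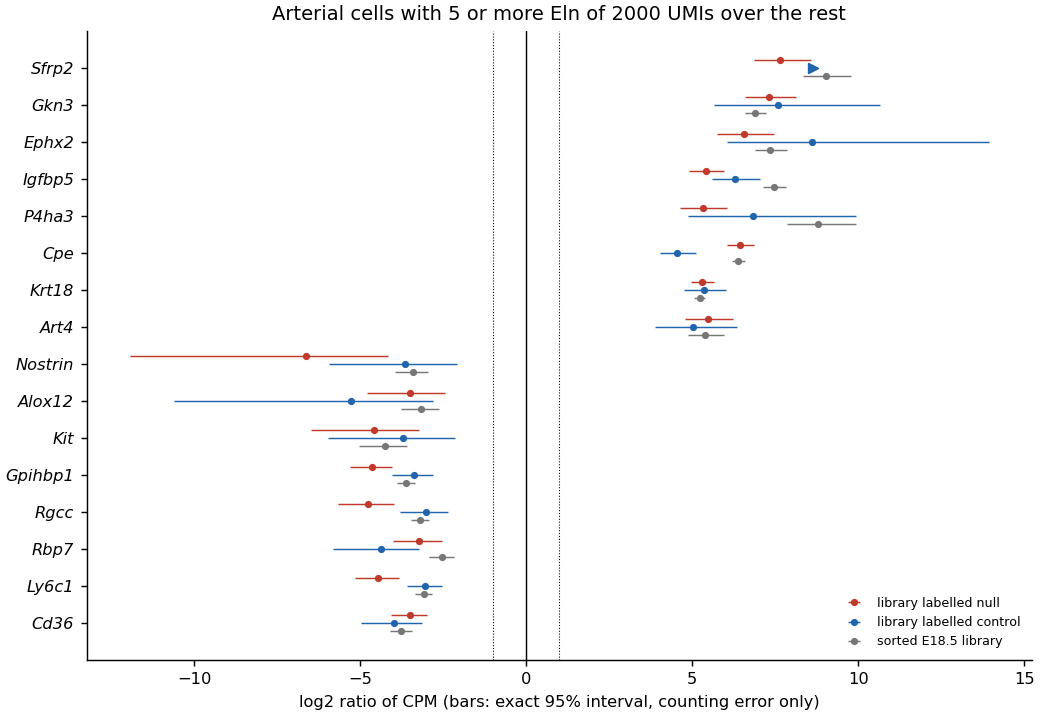
Log2 ratio of CPM in the proximal range over the rest of the arterial cells (x axis) for the 8 genes highest and the 8 lowest by their mean ratio (y axis), with exact 95% intervals; dotted lines mark 2-fold and the triangle marks a gene with no UMI in the rest, drawn with 0.5 CPM added. Gkn3 lies on the higher side and Alox12 on the lower side in all 3 libraries. The proximal range of each library was cut with the same Eln limit.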

How the data were processed

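The deposited files hold counts of UMIs per gene and barcode, which the authors made with Cell Ranger 3.1 (file headers 3.1.0 for the whole lungs, 3.0.2 for the sorted library), and Seurat 3.2.2 is named in the submitters' processing notes. A second deposited table of each whole-lung library holds expected counts, that is UMIs after SoupX had taken out free RNA, which need not be whole. The whole-lung libraries held 103857395 and 85648519 UMIs. The adjusted values chose the cells of the whole-lung libraries, and the whole-number counts chose those of the sorted library. Whole-number counts gave the levels in each library, summed over cells as CPM with Poisson intervals. Ratios carry exact conditional binomial intervals and shares Clopper-Pearson intervals. Log2 ratios added 0.5 CPM, and genes needed 50 CPM in 1 group. Fold changes in the text carry no added value. The members and gene lists were chosen with earlier results of these data known. Named genes were the 12 per direction with the largest mean log2 ratio over both whole-lung libraries among genes with 50 CPM in the higher population and 1 direction, the 12 per direction between libraries whose direction held with SoupX values, and 8 per direction for the proximal range, plus the listed genes; genes of the rule, of haemoglobin, of mitochondria, of ribosomal proteins and of the sex chromosomes as listed were left out. Genes past 2-fold between libraries but outside the rule were named after their values were seen. Doublets were called with Scrublet in scanpy 1.11.5 and kept. The script was tested on simulated data. Sums used scipy 1.17.1.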

Additional observations from a re-analysis of the deposited data

Results flagged for a closer look

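Mif, which encodes a cytokine listed here with hypoxia and glycolysis, was flagged because its ratio of arterial over other ECs pointed opposite ways in the whole-lung libraries, with each counting interval on 1 side of 0. The log2 ratio was -0.10 in the library labelled null and 0.13 in the library labelled control. The difference was not tested, and it is small beside the 2-fold mark.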

How the results depend on the processing

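No paired analysis was possible because each label had 1 library. Of 122 summary values under the alternatives, 79 kept their value within the main interval or within 1.5 times the main count, and 43 did not. With Gja4 plus Stmn2 of at least 3 the arterial shares in the libraries labelled null and control were 51.5% and 26.04%, with Gja4 alone 46.6% and 24.9%, with all other ECs in the denominator 47.6% and 24.6%, and with the rule on unadjusted UMIs 63.0% and 37.9%. Chosen after seeing the data, sums of at least 5 gave 45.1% and 22.02%, sums of at least 10 gave 34.7% and 16.3%, and thinning gave 53.8% and 31.6%. The share stayed higher in the library labelled null in each of these. Genes at least 2-fold lower in arterial cells, 39 in the main analysis, numbered 12 with unadjusted UMIs, 60 with Gja4 alone, 62 with SoupX values, 70 against all other ECs and 86 at sums of at least 10. At a minimum of 10 CPM 245 genes were higher and 70 lower, and with no minimum 423 and 124, against 105 and 39. Between the libraries, 5 higher genes became 8 with unadjusted UMIs, with Scrublet calls removed and at sums of at least 10, and 3 with Gja4 alone. Lower genes went from 14 to 9 with the mean of per-cell CPM. SoupX values gave 78 and 27, a minimum of 10 CPM 25 and 60, and no minimum 241 and 481. The log2 ratio of Cxcl12 was between 5.53 and 6.15 under each alternative run. The proximal share was 5.20% and 4.34% with unadjusted UMIs, 5.26% and 5.53% at 8 Eln UMIs, 10.1% and 11.8% at 3, and 9.82% and 11.9% at sums of at least 10, and 8.26% in the library labelled null with Gja4 plus Stmn2 of at least 3. The thinning was drawn anew wherever the set of cells changed, so these shares also carry the error of the draw. Of 672 values of named genes, 2 reversed, counting ratios past 2-fold, both at sums of at least 10: Mt1 (0.46) and S100a8 (0.15). Ctss (0.58) and Tyrobp (0.60), under 2-fold in the main analysis, also turned there. In 18 more, all of Mt1, S100a8, Apoe, Igfbp3 or Igfbp5, the direction held and the ratio was under 2-fold. The causes were not tested. Depth limits genes under 50 CPM, and 36 proximal cells of the library labelled control give wide intervals.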
